A study of Mus musculus with 12 samples.

Results

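The 9 genes *Lrp2*, *Akap12*, *Timp2*, *Olfm4*, *Slc6a12*, *Fkbp2*, *Pon2*, *Gpr162* and *Tceal5* were examined among the 56748 genes of an RNA-seq table of mouse rods and whole retina. They were taken from the top of the lists of genes with lower values in mice that lack pyruvate kinase M2 in rods, by the unadjusted p-value of the genotype comparison in rods or in whole retina, with the targeted gene *Pkm* and its copies left out. The genes were thus chosen by the genotype differences in these libraries. Those differences are given here as a description, and no p-value or call of the 9 in the genotype comparisons is read as support. Each of the 9 symbols matched 1 gene of the table.

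The study compared littermates with 1 floxed *Pkm2* allele (RiboTag;Pkm2fl/+;i75-Rod-Cre, called control) and with 2 floxed alleles (RiboTag;Pkm2fl/fl;i75-Rod-Cre, called Rodko). Both genotypes carried the rhodopsin promoter-driven i75Cre transgene and were homozygous for Ribo-Tag, an allele in which Cre attaches an HA tag to a ribosomal protein, so the control is itself heterozygous for *Pkm2* in rods. Antibody beads pulled down tagged ribosomes with their mRNA from rods (Rod-TRAP, called rods), and the lysate before the pulldown was the input (called retina). Each of the 4 groups had 3 libraries. The tissue was frozen after perfusion with cycloheximide, which arrests ribosomes on mRNA, and the age is given as 2 weeks in the deposited design and as 2 months in the methods. The sources used here do not say whether a library was made from 1 animal or from several, so the spread between replicates may in part be technical.

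The genes have unlike roles. *Lrp2* encodes megalin, a very large endocytic receptor of the low-density lipoprotein (LDL) receptor family that takes up ligands with partners such as cubilin, *Dab2* and the chaperone encoded by *Lrpap1*. *Gpr162* encodes an orphan G-protein-coupled receptor, and *Slc6a12* encodes BGT1, a transporter of betaine and GABA whose gene is known to respond to osmotic stress. *Timp2* and *Olfm4* encode secreted proteins, an inhibitor of matrix metalloproteinases and a glycoprotein with an olfactomedin domain. *Akap12* encodes a scaffold that anchors protein kinase A (PKA). *Fkbp2* encodes a peptidyl-prolyl isomerase of the endoplasmic reticulum, *Pon2* an intracellular paraoxonase with antioxidant activity, and *Tceal5* a small protein of the X-linked TCEAL family, related to transcription elongation factor A. Rods make up most cells of the mouse retina, and the pulldown enriches their transcripts over those of glia, inner retinal neurons and vessels.

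The genes lie on 7 chromosomes: *Lrp2* on chromosome 2, *Slc6a12*, *Pon2* and *Gpr162* on chromosome 6, *Akap12* on 10, *Timp2* on 11, *Olfm4* on 14, *Fkbp2* on 19 and *Tceal5* on X. None is on chromosome 9, which carries *Pkm*. RefSeq promoter windows, 250 bases before to 50 after a start site on GRCm38.p6, were at hand for 7 of the 9 genes, with 15 windows in all. The windows of 3 genes are printed because these genes had the lowest p-values of the 9 in rods. Capitals mark GC boxes (GGGCGG on either strand), which were in 35.66% of 32851 windows of the same length.
*Lrp2*, chr2:69585980-69586279, minus strand: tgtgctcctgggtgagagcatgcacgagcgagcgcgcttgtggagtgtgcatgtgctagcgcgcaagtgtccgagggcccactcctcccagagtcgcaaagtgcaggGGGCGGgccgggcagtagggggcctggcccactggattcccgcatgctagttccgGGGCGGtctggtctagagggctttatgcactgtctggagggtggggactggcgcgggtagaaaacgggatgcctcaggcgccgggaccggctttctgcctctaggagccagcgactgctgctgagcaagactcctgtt
*Olfm4*, chr14:80000052-80000351, plus strand: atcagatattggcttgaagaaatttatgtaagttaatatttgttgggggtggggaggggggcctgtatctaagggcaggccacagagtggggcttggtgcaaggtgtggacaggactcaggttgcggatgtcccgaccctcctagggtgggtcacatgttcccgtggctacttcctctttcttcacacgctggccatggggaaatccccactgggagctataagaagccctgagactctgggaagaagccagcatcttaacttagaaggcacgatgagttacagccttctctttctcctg
*Slc6a12*, chr6:121342324-121342623, plus strand, the first of 5 windows: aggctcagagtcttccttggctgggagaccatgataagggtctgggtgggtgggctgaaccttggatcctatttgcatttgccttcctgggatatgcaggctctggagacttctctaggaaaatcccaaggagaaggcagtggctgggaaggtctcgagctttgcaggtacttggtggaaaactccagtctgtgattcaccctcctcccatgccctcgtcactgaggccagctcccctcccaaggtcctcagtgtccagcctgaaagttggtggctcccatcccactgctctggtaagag

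The window of *Lrp2* held 2 GC boxes, that of *Pon2* held 3, that of *Timp2* held 1, and the 3 windows of *Fkbp2* held 3, 5 and 0. Those of *Olfm4*, *Slc6a12* and *Tceal5* held 0. The photoreceptor homeobox core TAATCC, known as a binding motif of Crx and Otx2, was in 7.062% of all windows and in none of the 15. The core TAATTA (5.291% of all windows) and the TATA box TATAAA (13.62%) were in none of the 15 either. These are matches of letters on both strands and say nothing of the factors.

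The deposited values, called normalized reads, are reads per gene divided by a size factor set within each fraction. The 12 libraries held between 13458890 and 22790074 reads, and replicate libraries differed by more than counting noise (chi-square per degree of freedom of 7.16 or more in each pair). The targeted gene *Pkm*, counted over all isoforms, had 52565 ± 1766 normalized reads in control rods and 22850 ± 795 in Rodko rods (SD, n = 3 each). Its adjusted p was 5.36e-05 by limma. In retina it had 32324 ± 1664 and 20530 ± 552. All 13 rod marker genes were higher in rods than in retina (limma, adjusted p under 0.05), which fits the label of the bead libraries. In control replicates 1 and 2 of both fractions, 4 libraries in all, the 4 Y-linked genes *Ddx3y*, *Eif2s3y*, *Kdm5d* and *Uty* had 0 reads, while the other 8 libraries held between 322 and 1599 reads on them, so sex composition and genotype overlap in part. Pigment epithelium markers summed to between 2581.5 and 23867 normalized reads in control retina and to between 4605.4 and 14566 in Rodko retina. The part of these differences between libraries in the members' values was not tested. A fit with a term for Y-linked reads is described below, but it cannot tell sex from other traits of control replicate 3.

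All 9 genes had a lower mean in Rodko than in control in both fractions, and the median of their log2 fold changes was -0.66 for rods and -0.34 for retina, beside 0.006 and -0.004 over all tested genes. Over all tested genes 48.9% and 51% of means were lower in Rodko. The rule fixed this direction for each gene in at least 1 fraction. In rods, all 3 Rodko libraries lay below all 3 control libraries for 6 of the 9 genes, against 5.4% of the 20658 genes tested there. In retina the same held for 6 of 9, against 4.76% of 25590 genes. It held in both fractions for *Lrp2*, *Akap12* and *Gpr162*, against 0.448% of the 20299 genes tested in both. It held only in rods for *Timp2*, *Olfm4* and *Slc6a12* and only in retina for *Fkbp2*, *Pon2* and *Tceal5*. The limma fits over all genes used an adjusted p of 0.05. They called 4 genes lower in Rodko rods (0.0194%) and 1 in Rodko retina (0.00391%), and none of the 9 was among them. Of the 9, edgeR called 0 in both fractions, and DESeq2 called *Lrp2* in rods (adjusted p = 0.036) and 0 in retina. As the 9 were chosen by these same differences, nothing more is read from their p-values.

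**Figure D1:**
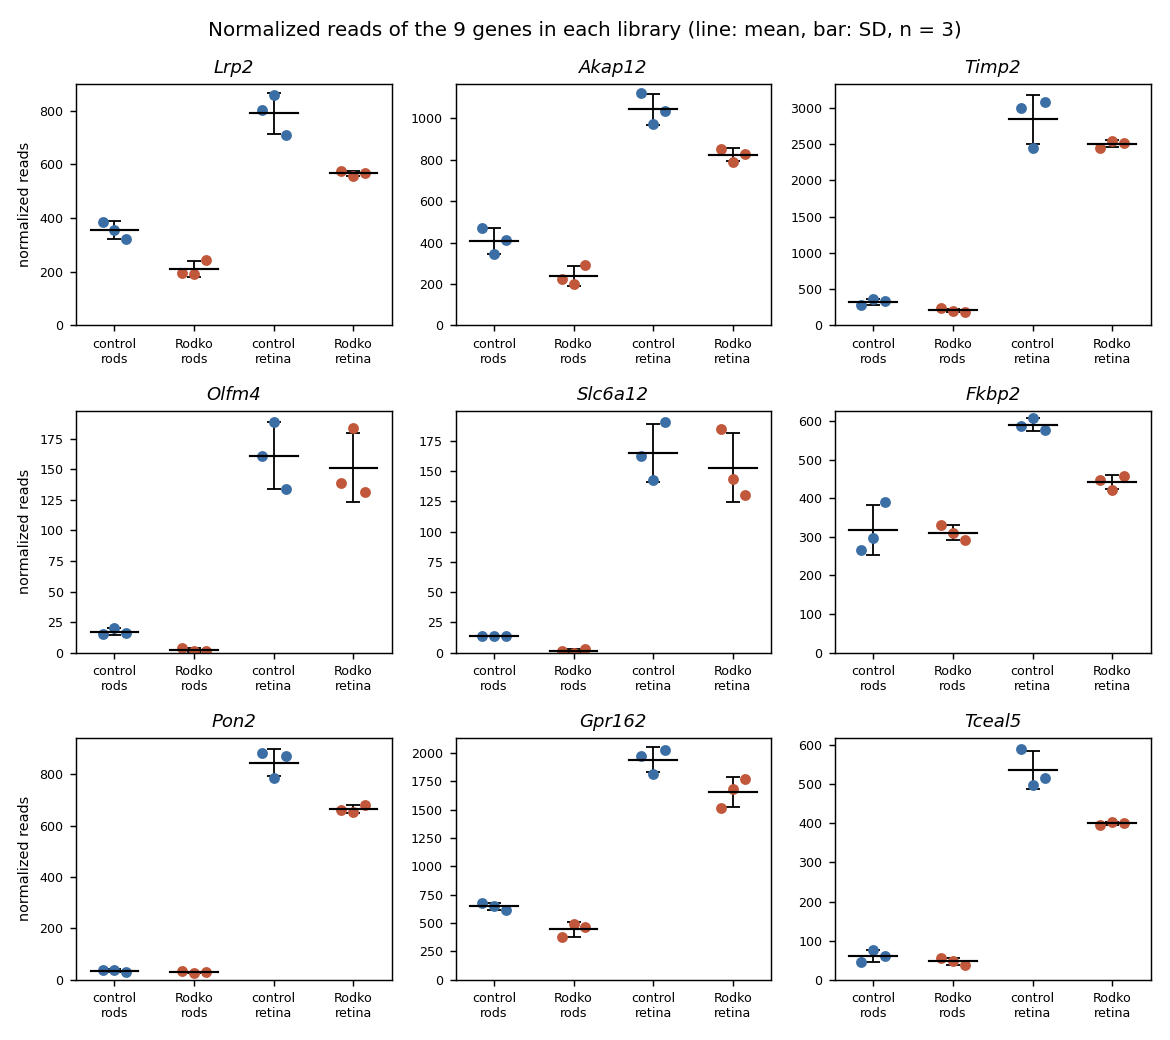
Normalized reads (y axis, linear, from 0) of each of the 9 genes in the 12 libraries, with the 4 groups on the x axis, control in blue and Rodko in red, a point per library, a line at the mean and a bar for the SD (n = 3). For *Lrp2*, *Akap12* and *Gpr162* the red points lie below the blue points in rods and in retina, while for *Olfm4* and *Slc6a12* they lie apart in rods and overlap in retina.

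Among the receptors, *Lrp2* had 387, 357.5 and 320.4 normalized reads in control rods against 195.7, 191.9 and 244.8 in Rodko rods. In retina it had 802.6, 860.1 and 708.5 in control and 576, 558 and 567.1 in Rodko. The groups did not overlap in either fraction, and the Rodko retina libraries lay close together (558 to 576). The Rodko mean was 40.6% lower in rods and 28.3% lower in retina (log2 fold change -0.75 ± 0.14 and -0.47 ± 0.09, SE).

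*Gpr162*, the orphan receptor, had 680.5, 649.3 and 615 normalized reads in control rods and 373.1, 495.2 and 463.4 in Rodko rods. In retina it had 1972.4, 1815 and 2027 in control and 1510.6, 1683 and 1767.7 in Rodko. The lowest control library was above the highest Rodko library in both fractions, in retina by a margin smaller than the spread within Rodko. The log2 fold change was -0.55 ± 0.12 in rods and -0.23 ± 0.08 in retina.

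*Slc6a12*, the betaine and GABA transporter, had 14.1, 13.9 and 13.6 normalized reads in control rods and 1, 0 and 3.2 in Rodko rods. These values rest on 41 reads in the control libraries and 5 in the Rodko libraries together, a ratio of 8.81 after scaling. An exact 95% interval of 3.48 to 28.6 covers counting error only. It leaves out the spread between replicates and the choice of the gene by this same difference, so it is not a test of it. A library with 0 reads, as Rodko rods replicate 2 was, allows a level of up to 3.22 normalized reads. In retina the gene had 162.7, 142.8 and 190.4 in control and 184.6, 143.8 and 130.3 in Rodko, and there the groups overlapped (log2 fold change -0.12 ± 0.17). The fitted log2 fold change in rods was -2.87 ± 0.58, a value that depends on the 1 added before the log.

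Of the secreted proteins, *Olfm4* showed the same kind of split. It had 15.4, 20.4 and 16 normalized reads in control rods and 4.1, 1.1 and 1.6 in Rodko rods, from 53 and 7 reads in all. The ratio was 8.13 (95% interval 3.68 to 21.2, counting error only), with the same limits as for *Slc6a12*. In retina it had 160.7, 188.6 and 133.8 in control and 139.2, 183.6 and 131.5 in Rodko. The rod groups lay apart and the retina groups overlapped, with log2 fold changes of -2.58 ± 0.49 and -0.09 ± 0.17.

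*Timp2*, the metalloproteinase inhibitor, had 284.5, 361.1 and 336.4 normalized reads in control rods and 236.2, 197.2 and 185.4 in Rodko rods. In retina it had 2990.3, 2444.9 and 3076 in control and 2448.5, 2545.8 and 2510.8 in Rodko. The rod groups did not overlap. In retina control replicate 2 was below every Rodko library while the other 2 controls were above them, and the log2 fold change was -0.17 ± 0.09 there against -0.66 ± 0.14 in rods.

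Of the genes for intracellular proteins, the PKA scaffold *Akap12* had 471.6, 344.3 and 411.6 normalized reads in control rods and 225.1, 198.3 and 290.7 in Rodko rods. In retina it had 1121.1, 974.1 and 1034.5 in control and 852.4, 791.3 and 827.8 in Rodko. The groups lay apart in both fractions, with the Rodko mean 41.8% lower in rods and 21.0% lower in retina (log2 fold change -0.79 ± 0.16 and -0.34 ± 0.09).

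*Fkbp2*, the isomerase of the endoplasmic reticulum, had 587.3, 608.6 and 575.6 normalized reads in control retina and 447.3, 422.3 and 458.5 in Rodko retina. Its rod values were 266.5, 296.9 and 390.7 in control and 329.5, 310.8 and 291.5 in Rodko. The retina groups were separate, with means of 590.5 and 442.7, and the rod groups overlapped throughout, with the highest of the 6 rod values in control replicate 3 and the lowest in control replicate 1. The log2 fold change was -0.42 ± 0.09 in retina and -0.02 ± 0.15 in rods.

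*Pon2*, the paraoxonase, had 880.5, 783.3 and 868.9 normalized reads in control retina and 660.4, 651.1 and 680.3 in Rodko retina. In rods it had only 38.4, 37.9 and 29.6 in control and 32.4, 27.9 and 29.3 in Rodko. The retina groups lay apart by more than the spread within either, and the rod groups overlapped. The log2 fold changes were -0.34 ± 0.09 in retina and -0.23 ± 0.27 in rods.

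*Tceal5* had 590.3, 498.8 and 516.4 normalized reads in control retina and 396.7, 403.3 and 400.2 in Rodko retina. In rods it had 46.1, 75.9 and 61.6 in control and 55.8, 47.2 and 38.8 in Rodko. The Rodko retina libraries lay close together (SD 3.30, against 48.6 in control) and below every control, and the rod groups overlapped (log2 fold change -0.42 ± 0.10 in retina and -0.35 ± 0.25 in rods). *Tceal5* is X-linked, and the 2 control libraries without Y-linked reads held both the highest and the lowest of its 3 control retina values.

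**Figure D2:**
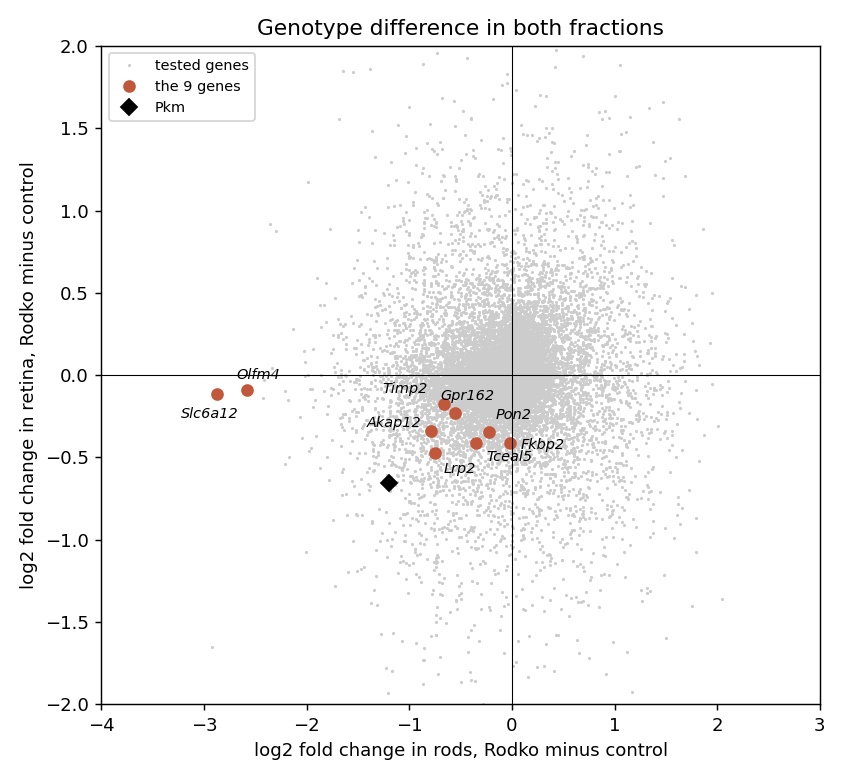
Log2 fold change of Rodko against control in rods (x axis) and in retina (y axis) for 20299 genes tested in both fractions (grey), the 9 genes (red) and *Pkm* (black). The axes leave out 19 genes. *Olfm4* and *Slc6a12* stand at the far left near 0 on the retina axis, *Fkbp2* near 0 on the rod axis, and all 9 red points lie below and to the left of 0.

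The control library with Y-linked reads, replicate 3, can be set against the 3 Rodko libraries alone. This library was among those that chose the genes, so its place above Rodko is in large part fixed by the choice. It lay above all 3 Rodko libraries for 8 of the 9 genes in rods, where 27.7% of all tested genes did, with *Pon2* the exception at 29.6 against 27.9 to 32.4. In retina it did so for 8 of 9, where 25.8% of all tested genes did, with *Olfm4* the exception at 133.8 against 131.5 to 183.6. With a term for Y-linked reads in 1 fit of the 12 libraries, added after the data were seen, the log2 fold change in rods was -0.61 for *Lrp2*, -0.79 for *Akap12*, -0.75 for *Timp2*, -2.41 for *Olfm4*, -2.96 for *Slc6a12* and -0.55 for *Gpr162*. In retina the term moved *Lrp2* from -0.47 to -0.33, *Fkbp2* from -0.42 to -0.55 and *Pon2* from -0.34 to -0.25, each by more than the spread between replicates. *Tceal5* was at -0.41 with the term. As every Rodko library held Y-linked reads, the term is set by control replicate 3 against the other control replicates alone. It therefore cannot tell sex from any other difference of that replicate.

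The ranks describe where the rule stopped. Among 10093 genes with a lower mean in Rodko rods, *Lrp2* ranked 5, *Olfm4* 6, *Slc6a12* 8, *Akap12* 9, *Timp2* 11 and *Gpr162* 12 by unadjusted p, from 0.000124 for *Lrp2* to 0.000544 for *Gpr162*. The ranks above them were *Pkm*, *Gm6560*, *Adpgk* and *Gm6992*, and *Spon1* (rank 10) stood between members without being chosen. Next outside were *Cplx3* at rank 13 with 0.000585 and *Cabp5* at rank 14 with 0.000588. In retina, among 13053 lower genes, *Lrp2* ranked 2, *Fkbp2* 4, *Tceal5* 6, *Pon2* 7 and *Akap12* 8, with *Gbp2b* at rank 5 not chosen and *Gmnc* and *Gstm5* next outside. The step from the last member to the first gene outside was thus small, and the 9 are part of a longer run of genes with like p-values.

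The comparison of rods with retina averaged over genotype is a measure that the choice did not use directly, although its mean and spread come from the same libraries. It was tested by limma on log2(scaled reads + 1), with reads scaled by the trimmed mean of M-values (TMM) over all 12 libraries, and fold changes on this scale understate the change of low genes. Lower in rods were 8 of the 9 genes, where 42.7% of 25458 tested genes were called lower and 27.3% higher. The low Rodko rod values that chose *Lrp2*, *Akap12*, *Timp2*, *Olfm4*, *Slc6a12* and *Gpr162* push this difference down. The low Rodko retina values that chose *Lrp2*, *Akap12*, *Fkbp2*, *Pon2* and *Tceal5* push it up. The comparison is thus not free of the choice. The median log2 difference of the 9 was -2.51, beside -0.39 for all tested genes. For 7 of the 9 every rod library lay below every retina library, as for 28.1% of all tested genes, the exceptions being *Lrp2* and *Fkbp2*.

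The largest differences belonged to *Slc6a12* (log2 -4.35 ± 0.31 SE, adjusted p = 3.05e-09, limma), *Pon2* (-3.90 ± 0.10, adjusted p = 8.42e-14) and *Olfm4* (-3.86 ± 0.24, adjusted p = 6.81e-10). Only 0.515% of tested genes had a log2 difference below that of *Pon2*. For *Slc6a12* and *Olfm4* the low Rodko rod values by which they were chosen enter this mean, so no such share is given for them. In control libraries alone their difference was -2.90 and -2.57, against -3.96 for *Pon2*.

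*Timp2* (-2.76 ± 0.08, adjusted p = 2.69e-13) and *Tceal5* (-2.51 ± 0.13, adjusted p = 5.52e-11) were also several-fold lower in rods. *Gpr162* (-1.14 ± 0.07, adjusted p = 6.35e-10), *Akap12* (-0.98 ± 0.10, adjusted p = 1.66e-07) and *Lrp2* (-0.69 ± 0.08, adjusted p = 1.23e-06) differed less. In control libraries alone the differences of *Timp2*, *Gpr162*, *Akap12* and *Lrp2* were smaller, at -2.52, -0.98, -0.76 and -0.56. Those of *Tceal5* and *Fkbp2* were larger there, at -2.54 and -0.31. Averaged over genotype, *Fkbp2* was at -0.11 ± 0.09 (adjusted p = 0.265) and did not pass. The scaling matters most for it. With total reads in place of TMM the median of all genes moved from -0.39 to -0.74, the share of lower among called genes from 61.0% to 84.5%, and *Fkbp2* to -0.68 (adjusted p = 3.34e-06). Relative to the median of all genes it was higher in rods in both cases, by 0.27 with TMM and by 0.06 with total reads, and the other 8 were below that median in both.

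**Figure D3:**
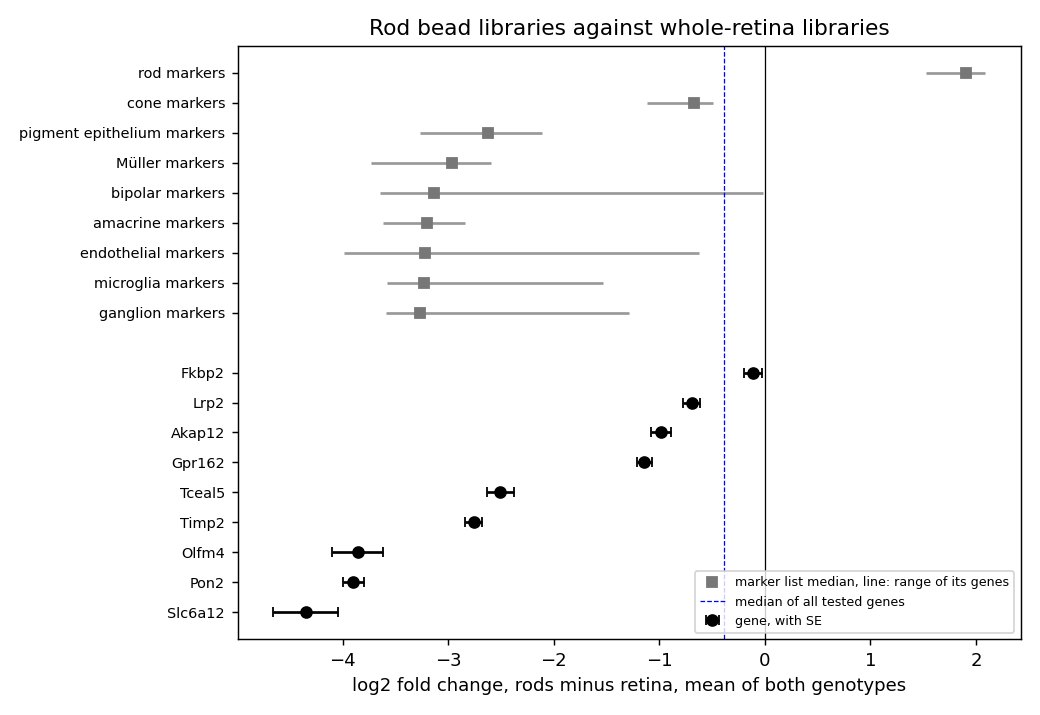
Log2 fold change of rods minus retina, averaged over genotype (x axis), for the 9 genes with SE (black) and for marker lists of 9 cell types (grey square for the median, line for the range of the list). The dashed line is the median of all tested genes, -0.39. *Slc6a12*, *Pon2* and *Olfm4* lie to the left of every plotted marker median, and *Fkbp2* lies nearest to 0. The places of *Slc6a12* and *Olfm4* rest in part on the low Rodko rod values by which they were chosen. In control libraries alone they were at -2.90 and -2.57.

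As a share of the retina level on the TMM scale, control rods held 81.5% of *Fkbp2*, 67.9% of *Lrp2*, 59.3% of *Akap12*, 50.5% of *Gpr162*, 17.4% of *Timp2*, 17.3% of *Tceal5*, 16.2% of *Olfm4*, 12.7% of *Slc6a12* and 6.32% of *Pon2*. In Rodko the same shares were 107%, 56.5%, 43.9%, 40.8%, 12.5%, 18.0%, 2.25%, 1.38% and 6.84%. The shares of *Olfm4* and *Slc6a12* were within a few percentage points of that of *Timp2* in control and far below it in Rodko. Those of *Pon2* and *Tceal5* were nearly the same in both genotypes. This contrast was in large part fixed by the choice of *Olfm4* and *Slc6a12* through their low Rodko rod values. These values rest on only 7 reads for *Olfm4* and 5 for *Slc6a12*. The summed markers of Müller glia had 14.8% of the retina level in control rods and 12.8% in Rodko rods, those of amacrine cells 12.2% and 9.21%, those of ganglion cells 13.6% and 11.4%, and those of 10 bipolar markers 11.6% and 9.90%. The bipolar share leaves out *Prkca*, which held 69.9% of that list's sum in control rods and stood at -0.02 (log2) between rods and retina. With it the share was 30.02% and 31.4%, and it was left out after its value had been seen. In control, *Timp2*, *Tceal5*, *Olfm4* and *Slc6a12* lay between 12.7% and 17.4%, beside 11.4% to 14.8% for the Müller, amacrine, ganglion, pigment epithelium, endothelial and microglia lists. *Timp2*, *Tceal5* and *Olfm4* were above the range of these lists, and only *Slc6a12* was within it. The horizontal list was at 11.9%, the pericyte and smooth muscle list at 12.2% and the lens list at 14.7%. Outside that range were the cone list at 62.8%, the ciliary margin list at 17.9%, the fibroblast list at 8.42% and the rod list at 415%.

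**Figure D4:**
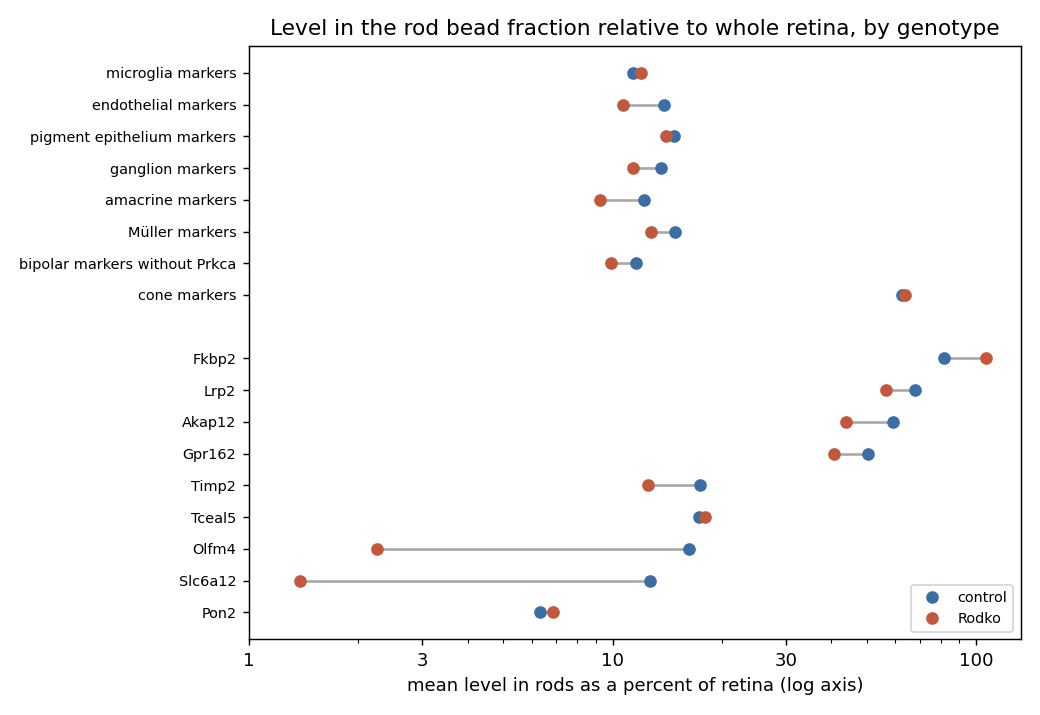
Mean level in rods as a percent of that in retina (x axis, log scale) in control (blue) and Rodko (red) for the 9 genes and, above them, for the summed markers of 8 cell types other than rods, bipolar cells without *Prkca*. The line between the points is long for *Olfm4* and *Slc6a12* and short for *Pon2* and *Tceal5*. The long lines come from the low Rodko rod values by which *Olfm4* and *Slc6a12* were chosen, which rest on few reads.

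Per kilobase of exon, the control retina level on the TMM scale was highest for *Timp2* with 597 scaled reads, followed by *Gpr162* with 414, *Tceal5* with 347, *Fkbp2* with 295, *Akap12* with 132, *Pon2* with 94.3, *Olfm4* with 44.6, *Slc6a12* with 44.4 and *Lrp2* with 38.8. *Olfm4* and *Slc6a12* did not differ beyond their spread. In control rods the order was *Fkbp2* with 240, *Gpr162* with 209, *Timp2* with 104, *Akap12* with 78.4, *Tceal5* with 60.0, *Lrp2* with 26.3, *Olfm4* with 7.22, *Pon2* with 5.96 and *Slc6a12* with 5.62. Fewer cells of a type and less RNA per cell cannot be told apart in such levels.

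Markers of other retinal cells were measured in the same libraries. In rods, none of 104 tested marker genes reached an adjusted p of 0.05 (22 were lower and 0 higher at an unadjusted p of 0.05, limma, where 3.41% of all genes were lower and 1.37% higher, and edgeR and DESeq2 also called 0), and their median log2 fold change was -0.27. Fold changes were negative for 9 of 9 Müller markers (median -0.37), 9 of 9 ganglion markers (-0.40), 8 of 9 amacrine markers (-0.51), 6 of 8 endothelial markers (-0.39) and 10 of 11 bipolar markers (-0.28), and positive for 12 of 13 rod markers (0.06). The Müller sum ran from 8751.2 to 10911 normalized reads in control rods and from 7156 to 8449.6 in Rodko rods. The amacrine sum ran from 1384.1 to 2170.4 and from 1103.9 to 1387.6. The ganglion sum ran from 1328.9 to 1650.9 and from 931.4 to 1436.5, and the bipolar sum from 4879.8 to 6109.3 and from 4403.6 to 5887.8, or without *Prkca* from 1414.7 to 1830.5 and from 1200.4 to 1218.3. The endothelial sum ran from 357.3 to 490.2 and from 243.3 to 341.3, and the pigment epithelium sum from 309.2 to 2262.7 and from 418.9 to 1507.4. No gene of these 6 lists was at 0 in any group. Of the other lists, *Lim2* of the lens list was at 0 in every group, *Col3a1* of the fibroblast list and *Msx1* of the ciliary margin list in control rods, and *Col1a1* in Rodko rods. The part of other cells in the members' values was not tested.

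In retina, all 11 bipolar markers, all 9 Müller markers and all 8 cone markers had negative fold changes, with medians of -0.24, -0.15 and -0.12, and 11 of 13 rod markers had positive ones (median 0.09). Negative too were all 8 endothelial markers (-0.14), 3 of 3 tested lens markers (-1.14), 7 of 8 microglia markers (-0.25) and 6 of 7 pericyte and smooth muscle markers (-0.12). Medians were -0.44 for fibroblast, -0.07 for horizontal, -0.05 for amacrine and -0.04 for ganglion markers. They were positive for pigment epithelium (0.19) and ciliary margin (0.14) markers. The Müller sum was 93215 to 106288 in control retina and 86419 to 94982 in Rodko retina. The bipolar sum was 26933 to 27514 and 20538 to 26613, and the cone sum 19391 to 20377 and 18012 to 19002. None of the 107 tested markers was called in retina by limma, edgeR or DESeq2 (5 were lower and 1 higher at an unadjusted p of 0.05, where 2.06% of all genes were lower and 2.12% higher). The part of other cells in the members' retina values was not tested either.

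The neighbours of the 9 genes on the chromosome were measured because reads can spill over. So few genes were called in these fits that an uncalled neighbour cannot exclude it. Fold changes were negative for 11 of 16 neighbours in rods (median -0.21) and 11 of 18 in retina (median -0.07). Over all tested genes 48.9% and 51% were negative. Of 18 adjoining protein-coding genes, none of 16 tested in rods and none of 18 tested in retina was called by limma, and at an unadjusted p of 0.05 only *P3h3*, beside *Gpr162*, was lower in rods (log2 -0.94), and none passed in retina. *Slc6a13*, which adjoins *Slc6a12* and encodes the related GABA transporter GAT2, had 23.4 normalized reads in control rods and 21.8 in Rodko rods on average (log2 0.14). It shares only 0.154% of 50-base windows with *Slc6a12*. *Pon3*, beside *Pon2*, was at -0.50 ± 0.63 (SE) in rods, from few reads, and at 0.21 ± 0.37 in retina.

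Some reads could be shared. Of the 50-base windows of *Tceal5*, 30.95% also occur in *Tceal6* or *Tceal3*, and *Tceal6* stood at -0.57 (log2) in rods and at -0.26 in retina (adjusted p = 0.932 and 0.947, limma), so the values of *Tceal5* are uncertain to that extent. *Pon2* shares 22.66% of its windows with the overlapping antisense gene *Gm44424*. The authors' counting rule and its use of strand are not given in the sources used here, and *Gm44424* itself was listed with 2 reads in the 12 libraries, both in Rodko retina. *Olfm4* shares 3.815% of its windows with *Gm6999* on the same strand, a gene with 13 reads in the control rod libraries together and 4 in the Rodko rod libraries. No such window was found for *Lrp2*, *Akap12*, *Timp2*, *Fkbp2* and *Gpr162*.

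Genes related to the 9 were measured as 8 lists with 111 genes. None of the 97 tested in rods or the 106 tested in retina was called by limma, edgeR or DESeq2. At an unadjusted p of 0.05, 11 were lower and 1 higher in rods, and 5 lower and 1 higher in retina. The shares over all tested genes were 3.41% lower and 1.37% higher in rods and 2.06% and 2.12% in retina. Their median was -0.11 (log2) in rods and -0.04 in retina, beside 0.006 and -0.004 for all tested genes. Between rods and retina, 78 of 106 were lower in rods and 18 higher, against 42.7% and 27.3% of all tested genes.

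In the list of the LDL receptor family and the partners of megalin, 10 of 16 genes had a negative fold change in rods, with a median of -0.11. Its most abundant gene in both fractions was *Vldlr*, the very low-density lipoprotein receptor, with 7895 normalized reads in control rods and 8980 in Rodko rods (log2 0.18) and 5940 and 6488 in retina (0.14). The megalin partners were scarce. *Cubn*, which encodes cubilin, averaged 0.833 in control rods and 26.8 in control retina, and *Dab2* 0.733 and 25.9, while the chaperone gene *Lrpap1* had 1754 and 2577. Among the anchors and subunits of PKA, 8 of 16 fold changes in rods were negative (median 0.03). *Prkar2a*, a regulatory subunit and the most abundant in rods, was at 0.15, and *Prkar1a*, the most abundant in retina, at -0.01 in rods and -0.06 in retina.

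Of the metalloproteinases and their inhibitors, 11 of 11 tested genes had negative fold changes in rods (median -0.47), against 5 of 12 in retina (median 0.04). None was called, and 1 was lower at an unadjusted p of 0.05. Its most abundant gene was *Timp3*, another inhibitor, with 310.1 normalized reads in control rods and 233.8 in Rodko rods (log2 -0.44) and 2343 and 2273 in retina (0.01). This list was lower in rods than in retina for 11 of 12 genes, as *Timp2* was, and most tested markers of Müller, amacrine, ganglion and bipolar cells had negative fold changes in rods as well. Of the genes with an olfactomedin domain, 6 of 8 were negative in rods (median -0.19) and 9 of 9 were lower in rods than in retina. *Olfm1*, the most abundant, had 420.9 and 389.6 in rods and 3160 and 3100 in retina.

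In the list of SLC6 transporters and osmolyte genes, 12 of 17 were negative in rods (median -0.09) and 13 of 20 in retina (-0.04). *Slc6a6*, the taurine transporter, was by far its most abundant gene, with 48424 normalized reads in control rods and 50299 in Rodko rods (log2 0.05). At an unadjusted p of 0.05, 4 were lower in rods and none in retina. FK506 binding proteins had a median of -0.03 in rods and -0.05 in retina, and *Fkbp4*, a cochaperone of Hsp90 and the most abundant, was at -0.03 and 0.02. The 2 paraoxonase paralogues and *Gpr153*, the closest relative of *Gpr162*, were negative in rods (3 of 3, median -0.50) and not in retina (median 0.21), where *Gpr153* had 1739 and 1741 normalized reads. In rods *Pon1* was at -1.05 ± 0.66 (SE), *Pon3* at -0.50 ± 0.63 and *Gpr153* at -0.48 ± 0.18. *Pon3* rested on 11 reads in control rods and 7 in Rodko rods. Among the Tceal, Bex and Tcea genes, 10 of 13 were negative in rods (median -0.11) and 11 of 13 in retina (-0.10). *Bex2*, the most abundant in retina, was at -0.09 there, and *Tcea1*, the most abundant in rods, at 0.06 in rods.

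**Figure D5:**
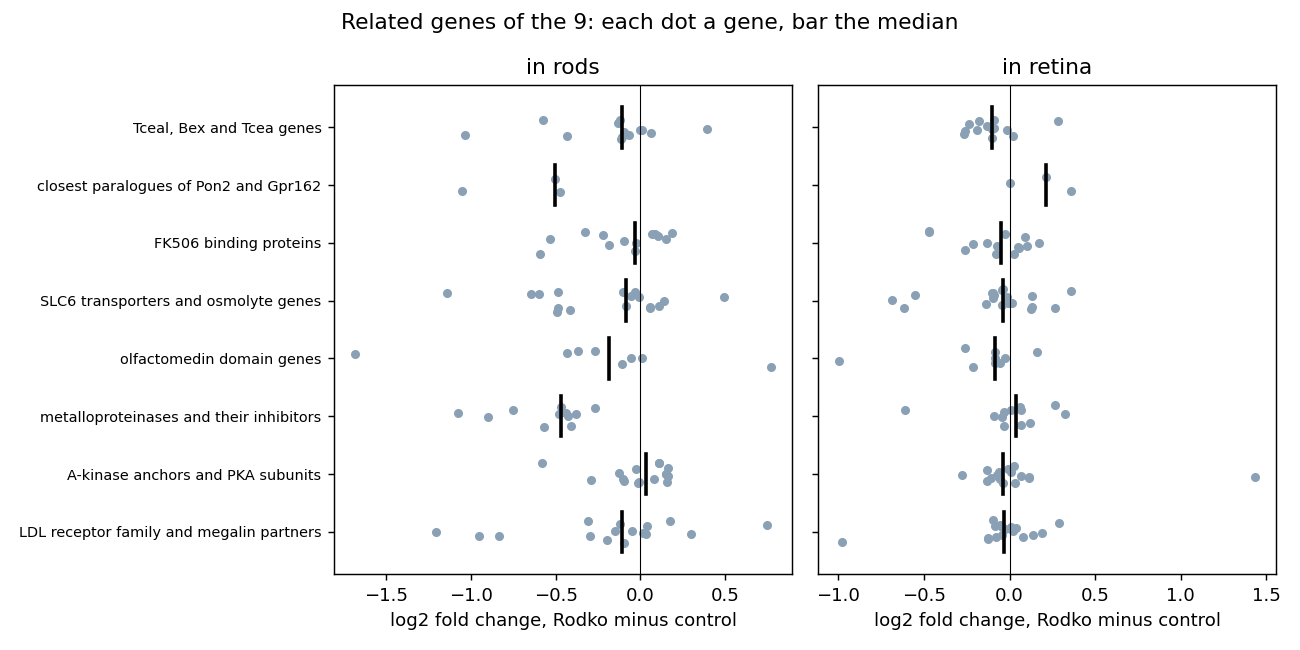
Log2 fold change of Rodko against control in rods (left) and in retina (right) for each tested gene of the 8 related lists (dots, spread vertically for legibility), with a bar at the list's median. The metalloproteinase list lies wholly to the left of 0 in rods, with a median of -0.47, and around 0 in retina.

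The genes whose levels followed each member most closely over the 12 libraries, with the mean of each fraction taken off, were ranked by Pearson's r among 16543 genes with a mean of at least 10 reads. The 12 points share libraries, depth and the 4 groups, so r is a description. It keeps the genotype difference by which the members were chosen, so a gene that also differs by genotype, as *Pkm* does by design, is alike in part through the choice. *Lrp2* was closest to *Pkm* itself (r = 0.93), then to *Tmub2* (0.89) and *Stard5* (0.89). *Akap12* was closest to *Hap1* (0.91), *Irf1* (0.90) and *Il17ra* (0.90). *Timp2* was closest to *Dact2* (0.97), to the Müller marker *Dkk3* (0.97) and to *Cabp1* (0.95). For 5 others the closest were *Ppp1r14c* for *Olfm4* (0.97), *Coro1a* for *Slc6a12* (0.95), *Opn1sw* for *Fkbp2* (0.92), *Dpysl2* for *Pon2* (0.88) and *St8sia2* for *Gpr162* (0.93). Among the 9, the closest pair was *Lrp2* and *Akap12* (r = 0.92) and the least alike were *Slc6a12* and *Fkbp2* (0.03). The genes closest to *Olfm4* and *Slc6a12* had log2 fold changes in rods of -0.96 for *Ppp1r14c* and -1.12 for *Coro1a*, smaller than those of *Olfm4* and *Slc6a12*, and of -0.03 each in retina.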

How the data were processed

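Rod-TRAP and input RNA of 4 groups with 3 libraries each were analysed. In the 1 table that the authors deposited, each signal is the reads of a gene divided by the library's size factor, which was set within its fraction, to 1 decimal. The submitters' processing notes name CASAVA 1.8.2, HISAT2, DESeq2, edgeR and GRCm39, with no parameters given in the sources used here. Whole reads were recovered for 100.0% of values (tolerance 0.05 in the deposited unit), and libraries held 13458890 to 22790074 reads, so that low genes such as *Slc6a12* and *Olfm4* rest on few counts in rods.

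Samples were grouped by their labels. The design allowed for counts or scaled values. As the table holds scaled values, limma 3.58.1 (R 4.3.3) with a variance trend on log2(value + 1) was the main test, within each fraction for genotype and on TMM-scaled reads with 4 group means for rods against retina. Genes with a mean of at least 1 in 1 group were tested, with Benjamini-Hochberg adjustment at 0.05 over all of them. Scripts were tested on simulated data. Alternatives were edgeR 4.0.16, DESeq2 1.42.0, other filters, scalings and pseudocounts, a replicate block, 1 fit of 12 libraries and leaving out each library. Named are the members, *Pkm*, the most abundant gene of each related list, genes alike in pattern, neighbours on the chromosome and the genes next in rank. *Cubn*, *Dab2* and *Lrpap1* were named after their values were seen. Some items that the naming rule picks are not reported here. The members and lists were chosen with earlier results of these data known. Same-numbered rod and retina libraries of a genotype deviated together (r of 0.163 to 0.398 over 12918 genes in all 6 pairs), so the numbers pair these fractions. Lengths, neighbours and shared windows came from GENCODE vM21, and promoters from RefSeq on GRCm38.p6. Chromosome positions of whole genes are not given, because the builds differ. Python 3.11.15 with pandas 2.3.3 was used for tables.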

Additional observations from a re-analysis of the deposited data

How the results depend on the processing

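The test of rods against retina called 8 of the 9 genes lower under edgeR, DESeq2, no filter, a pseudocount of 0.1, RLE scaling and the replicate block, and between 8 and 9 when 1 library was left out. With at least 10 reads in every library 6 were called, since *Olfm4* and *Slc6a12* were not tested there. With total reads scaling all 9 were called, *Fkbp2* at -0.68. *Fkbp2* also passed without control rods replicate 3 (log2 -0.19, adjusted p = 0.0352). Of all genes, 3912 were called lower and, of related genes, 50 with at least 10 reads in every library, and 2735 and 6 were called higher with total reads scaling.

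The genotype differences kept their sign in both fractions under every alternative for 7 of the 9 genes. The exceptions were *Fkbp2* in rods (-0.13 to 0.14 with 1 library left out) and *Olfm4* in retina (-0.24 to 0.03, and 0.08 with a term for Y-linked reads). *Slc6a12* in rods went from -2.87 to -4.29 with a pseudocount of 0.1. The count of genes lower in Rodko rods was 4, against 18 in 1 fit of 12 libraries, 7 with the term for Y-linked reads and 2 to 4 with 1 library left out (2 without control replicate 1, 2 or 3 or Rodko replicate 3). Higher in Rodko rods were 0, against 0 to 4 with 1 left out (4 without control replicate 3). In retina 1 was lower, against 0 with at least 10 reads in every library, 0 with the term for Y-linked reads, 0 with the block and 0 to 2 with 1 left out (1 of 6 such fits gave 2 and 5 gave 0), and 0 were higher, against 0 to 4. The cause of these shifts was not tested.

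Numbers do not pair the genotypes within a fraction (r of -0.0717, 0.109 and -0.232 in rods and 0.0954, 0.00926 and -0.236 in retina). With the replicate block 4 genes were lower and 4 higher in Rodko rods and 0 lower in retina. It changed no call of the rods against retina test among the 9 genes.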
